A study of Homo sapiens with 2 samples.

Results

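Neighbouring genes often share a short stretch of CpG-rich DNA between their facing ends, and 1193 such shared ends were described here in H9 human embryonic stem cells. A shared end is a gap of 1 to 1000 bp between the facing ends of 2 neighbouring, non-overlapping protein-coding genes of the RefSeq annotation (GRCh38.p14) on the autosomes. The interval from 200 bp inside the left gene to 200 bp inside the right gene had to hold at least 5 CpG sites per 100 bp. Of 2023 gaps of that length, 1193 (59.0%) met this limit, and they joined 2332 different genes, which is 12.2% of 19126 autosomal protein-coding genes. "Left" and "right" follow the order of the genes along the chromosome.

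The study made ATAC-Me libraries from H9, an established line of human embryonic stem cells grown undifferentiated on a coated surface without treatment. There was 1 group with 2 replicates; the labels do not say whether these are separate cultures, and their spread may be technical. In ATAC-Me a transposase tags accessible DNA, and conversion of unmethylated cytosines then lets each tagged fragment report its own methylation. Each replicate had a table of methylation per CpG, and the group had 1 list of open-chromatin peaks.

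Genes whose starts lie back to back are transcribed away from each other out of a shared, so-called bidirectional promoter. Such promoters commonly sit in CpG islands, stretches of CpG-rich DNA that are usually kept free of methylation, and they are often used by housekeeping genes. Methylation of a CpG island at a gene start is known to go with lasting silence of that gene, for example at genes reserved for germ cells. A gene that ends close to the start of the next gene can instead place its transcribed tail beside, or inside, the CpG island of its neighbour.

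The gap sequences of 7 pairs with facing starts are printed because the results turn on what these gaps have in common and on the exceptions. All are from RefSeq, build GRCh38.p14, plus strand, running from the edge of the left gene to the edge of the right gene, with each CpG in capitals. HSPD1/HSPE1 (chr2:197500275-197500378), SARS2/MRPS12 (chr19:38930764-38930943), GART/SON (chr21:33542894-33543037) and HARS1/HARS2 (chr5:140691371-140691454) stand for open, unmethylated gaps. COL4A4/COL4A3 (chr2:227164489-227164623) was unmethylated without a peak. SYCP2/FAM217B (chr20:59933638-59933778) and ZKSCAN4/NKAPL (chr6:28259212-28259296) were methylated.
HSPD1/HSPE1: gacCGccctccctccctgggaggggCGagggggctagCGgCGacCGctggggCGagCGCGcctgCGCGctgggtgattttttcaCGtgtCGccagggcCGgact
SARS2/MRPS12: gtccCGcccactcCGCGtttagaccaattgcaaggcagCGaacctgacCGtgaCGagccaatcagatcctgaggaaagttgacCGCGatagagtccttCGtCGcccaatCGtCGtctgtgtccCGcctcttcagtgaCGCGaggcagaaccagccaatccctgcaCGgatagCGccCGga
GART/SON: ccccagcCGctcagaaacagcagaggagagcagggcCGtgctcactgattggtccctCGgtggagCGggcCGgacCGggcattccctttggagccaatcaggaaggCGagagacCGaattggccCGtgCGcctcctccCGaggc
HARS1/HARS2: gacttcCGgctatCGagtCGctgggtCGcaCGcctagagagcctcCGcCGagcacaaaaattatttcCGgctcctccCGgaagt
COL4A4/COL4A3: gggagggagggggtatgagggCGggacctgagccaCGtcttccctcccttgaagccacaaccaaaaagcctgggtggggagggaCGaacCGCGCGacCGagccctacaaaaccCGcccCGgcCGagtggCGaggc
SYCP2/FAM217B: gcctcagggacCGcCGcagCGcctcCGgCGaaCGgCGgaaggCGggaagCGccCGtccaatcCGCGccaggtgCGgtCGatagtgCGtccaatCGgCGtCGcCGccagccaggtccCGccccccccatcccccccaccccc
ZKSCAN4/NKAPL: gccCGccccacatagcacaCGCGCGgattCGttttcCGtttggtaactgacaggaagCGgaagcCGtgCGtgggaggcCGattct

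Within these printed gaps the CpGs were nearly all unmethylated in the open pairs and mostly methylated in SYCP2/FAM217B and ZKSCAN4/NKAPL. The 13 CpGs of the HSPD1/HSPE1 gap, between the mitochondrial chaperonin and its co-chaperone, gave 0.437% methylated reads in replicate 1 and 1.16% in replicate 2. The 18 CpGs of the SARS2/MRPS12 gap, between a mitochondrial seryl-tRNA synthetase and a mitochondrial ribosome protein, gave 0% of 463 reads and 0.674% of 1038 reads. By the rule of 3 counts, 0 of 463 reads allows a share of up to 0.648%, and such limits and all intervals below cover counting error only. In the SYCP2/FAM217B gap, whose left gene makes a protein of the meiotic chromosome axis, 78.3% of 69 and 73.8% of 141 reads were methylated. At ZKSCAN4/NKAPL the gap had only 11 and 24 reads, 81.8% and 75% of them methylated. The 11 CpGs of the COL4A4/COL4A3 gap, between type IV collagen chains of basement membranes, gave no methylated read among 39 and 47, which allows up to 7.69% and 6.38%.

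Depth was modest and unequal, and it bears on all values below. Autosomal CpG reads numbered 28475863 in replicate 1 and 51406146 in replicate 2, with a mean of 1.02 and 1.85 reads per CpG site. Shared ends were far deeper, with a median of 663 and 997 reads per interval, a read being counted at every CpG it covers. Replicate 2 read as more methylated genome-wide (46.01% against 32.3%) and in 979 of the 1044 shared ends with at least 200 reads in each replicate (93.8%). Methylation here is methylated reads over all reads of an interval. The reads come from tagged, accessible DNA, so a value is not the share of all copies that are methylated. The middle 50% of shared ends lay between 0.148% and 0.696% in replicate 1 and between 0.973% and 1.85% in replicate 2. Marker genes were looked at beside the label of pluripotent cells. All 6 pluripotency genes with a start in the reference (SOX2, NANOG, DNMT3B, CRIPTO, ZFP42 and L1TD1) had a peak within 1000 bp of it. So did VIM, the 1 fibroblast gene with a start, and 5 of 9 genes of other lineages. Over another interval, a peak lay at 80.4% of single CpG-dense gene starts (defined below), so these counts do little to tell cell types apart. DNMT3B had a peak but 43.9% and 49.7% methylated reads, over 11 CpGs. POU5F1, LIN28A, SALL4 and PODXL have no start in the table used.

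Some shared ends gave no data. In 42 shared ends (3.52%) neither replicate had a read at any CpG and none had a peak, against 2.79% of single CpG-dense gene ends. On chromosome 6, 19 of the 21 shared ends between positions 30556490 and 33418166 belonged to this set, in the region that holds the antigen-presentation genes. TAP1/PSMB9, a peptide transporter subunit and an immunoproteasome subunit, was among them. Why these intervals held no reads was not tested, and their openness and methylation are unknown. They count as intervals without a peak in the shares below unless they are said to be left out. At least 20 reads in each replicate were available in 1139 shared ends.

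Shared ends were open more often than single CpG-dense gene ends. A single end is the edge of a protein-coding gene with no other such gene within 1000 bp, taken from 200 bp inside to 500 bp outside the gene, with the same CpG limit, and 8146 were found. A peak lay at 1048 of the 1193 shared ends (87.8%), against a background of 77.2% at single ends, a difference of 10.6 percentage points. With the intervals without any read left out, the shares were 91.05% and 79.4%. The authors called 1 peak list for the group, so this difference has no replicate error and no test.

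Methylation was very low at both kinds of end, slightly lower at shared ones. Shared ends had 0.704% methylated reads in replicate 1 and 1.81% in replicate 2 (mean 1.26% ± 0.782, SD, n = 2). Single ends had 1.03% and 2.14% (1.59% ± 0.783, SD, n = 2). The difference was −0.328 and −0.329 points in the replicates, −0.329 ± 0.000895 (SD, n = 2), which exceeds the spread of these paired values. With 2 pairs, the smallest two-sided p of an exact permutation by sign flips is 0.5, and p-values are therefore not given for differences. Its sign depended on the interval and on depth: it was 0.0146 points with single ends of 200 bp on each side and 0.672 points within 10 equal classes of reads per CpG. Shared ends also held more reads per CpG, 1.22 and 1.25 times those of single ends.

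High methylation was rare. Over 20% in both replicates were 20 of the 1139 shared ends with enough reads (1.76%), against a background of 2.43% at single ends. Over 80% in both were 12 (1.05%), against 1.32%. Under 5% in both were 1053 (92.4%), against 87.6%. The median shared end had 0.326% in replicate 1 and 1.24% in replicate 2, and the 95th percentile was 5.33% and 7.41%. The shares on each side of the limits are thus near the background for high values and above it for low ones.

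Shared ends differed by the direction of their genes. RefSeq gene starts gave the direction of both genes in 899 shared ends. In 697 (58.4%) the starts of both genes faced each other, in 191 (16.0%) the end of 1 gene faced the start of the next, and in 11 (0.922%) the ends of both genes faced each other. Direction was unknown in 294 (24.6%), where the reference gives no start for at least 1 gene. Among the facing starts, 532 pairs have both RefSeq starts exactly at the gene edges. The CpG limit itself had selected strongly on direction, since it was met by 93.2% of the 748 gaps between facing starts, 50.7% of the 377 with an end facing a start, and 3.28% of the 335 between facing ends.

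Facing starts were the most open and least methylated. They had 0.405% and 1.33% methylated reads (mean 0.866% ± 0.653, SD, n = 2), and 98.1% of the 677 with enough reads were under 5% in both replicates, against a background of 89.2% at single starts. A peak lay at 648 of 697 (93.0%), against a background of 80.4% at single starts. Their reads per CpG stood at 16.4 and 12.3 times the genome mean of the replicate. Single starts, 6329 gene starts with no close neighbour, had 0.965% and 2.01% (1.49% ± 0.738). The difference of −0.560 and −0.680 points, −0.620 ± 0.0849 (SD, n = 2), exceeded that spread. It was −0.456 ± 0.0192 points among intervals with a peak and −0.284 ± 0.0865 points with single starts of 200 bp on each side.

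Depth and methylation moved together in this comparison. Facing starts had 1.36 and 1.34 times the reads per CpG of single starts. Within 10 equal classes of reads per CpG, facing starts were lower in 8 of 10 in both replicates, but the weighted mean difference turned to 0.614 ± 0.428 points (SD, n = 2). The class with the fewest reads held only 27 facing starts, at a mean of 41.0% against 14.8% of single starts. Without that class the mean difference was −0.418 points.

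End-to-start and end-to-end gaps were more methylated. Shared ends with an end facing a start had 1.95% and 3.04% (mean 2.50% ± 0.769, SD, n = 2), and 150 of 191 had a peak (78.5%). Facing starts were lower than these by 1.55 points in replicate 1 and 1.71 points in replicate 2 (−1.63 ± 0.116, SD, n = 2), a difference larger than the spread between replicates. The 11 gaps between facing ends had 27.4% and 36.6% (32.0% ± 6.48), and 1 of them had a peak (9.09%), against a background of 26.2% at 164 single gene ends known not to be starts. Those single ends had 9.44% and 14.7%. Shared ends of unknown direction, at 0.798% and 2.05%, lay between facing starts and end-to-start gaps in both replicates.

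**Figure D1:**
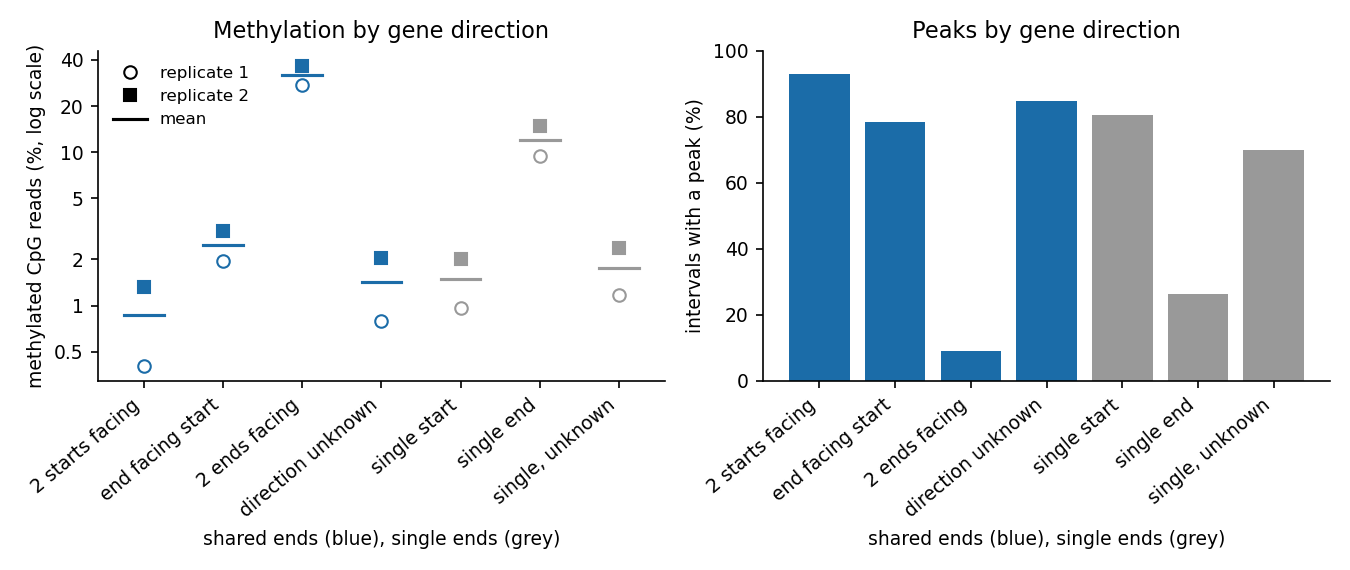
Methylated CpG reads (percent, log scale, left) and the percent of intervals with a peak (right) by the direction of the genes, for shared ends in blue and single ends in grey. Circles are replicate 1, squares replicate 2 and the line their mean. Facing starts are lowest in methylation (0.405% and 1.33%) and have the highest share of peaks (93.0%), and gaps between facing ends are highest in methylation (27.4% and 36.6%).

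CpG density changed the size of the difference but not its sign for facing starts, with single starts taken to 500 bp outside the gene. Against single starts of the same density, facing starts differed by −1.39 ± 0.256 points at 5 to 6 CpGs per 100 bp, −0.880 ± 0.153 at 6 to 8, −0.550 ± 0.0811 at 8 to 10, −0.330 ± 0.0521 at 10 to 12 and −0.168 ± 0.0593 at 12 and more (SD, n = 2). Each of these was larger than its spread between replicates, and they shrank toward the densest class as single starts themselves came down from 2.41% to 1.07%. Part of the single interval has no like in facing starts: outside single starts, mean methylation was 0.986% at 0 to 100 bp and 5.79% at 400 to 500 bp. With single starts of 200 bp on each side, the difference over all densities was −0.284 points, and the classes were not repeated with that interval. Over all directions, shared ends of 10 to 12 CpGs per 100 bp did not differ from single ends beyond the spread (−0.118 points in replicate 1 and 0.0352 in replicate 2). The share of intervals with a peak was higher at shared ends in all 5 classes, by 6.42 to 16.9 points. By pooled reads, the lowest-density class was the most methylated for single starts and facing starts alike. By medians over intervals this held for single starts only. The median facing start had 0.253% and 1.19% in the lowest-density class, against 0.340% and 1.16% at 10 to 12 CpGs per 100 bp. The lowest-density class of facing starts held 1 interval over 80% in both replicates, which weighs on its pooled value.

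The peak usually covered the whole gap. Of the 1048 shared ends with a peak, the strongest peak by the authors' signal spanned the gap from gene to gene in 801 (76.4%). It did so at 587 of 648 facing starts (90.6%) and at 45 of 150 end-to-start gaps (30.0%), whose gaps were longer. By gap length the share was 95.4% up to 100 bp, 93.1% above that up to 250 bp, 69.2% up to 500 bp and 21.9% up to 1000 bp. The summit lay in the gap in 775 of 1048 (74.0%), while the gap made up a median of 34.7% of the interval. Where it lay outside the gap at end-to-start pairs, it was inside the gene that starts in 30 and inside the gene that ends in 7. At least 2 separate peaks were found at 55 shared ends.

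**Figure D2:**
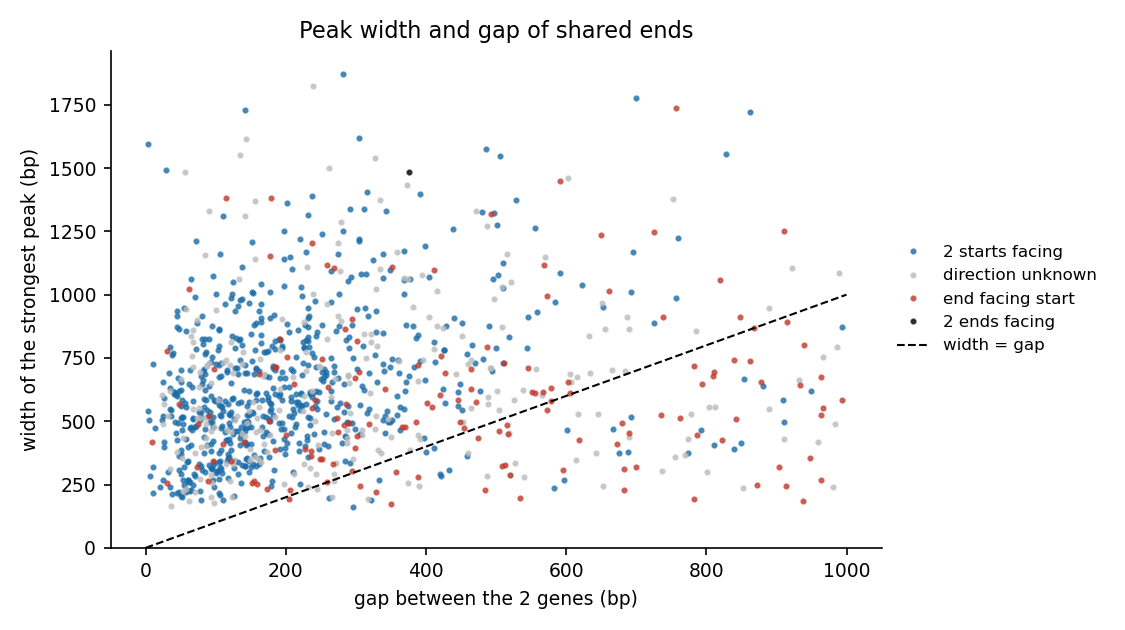
Width of the strongest peak (bp) against the gap between the 2 genes (bp) at the 1048 shared ends with a peak, 1 point each, coloured by gene direction. The dashed line marks a peak as wide as its gap. Most points with short gaps lie above it, and most with gaps over 500 bp lie below it.

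Facing starts with a longer gap had a higher peak signal and wider peaks, with low methylation at every length. Among facing starts, the share with a peak was 88.8% at gaps of up to 100 bp, 94.6% above that up to 250 bp, 93.2% up to 500 bp and 97.7% up to 1000 bp. The median peak signal, the caller's own value, was 998 at the shortest and 2411 at the longest gaps; this signal is not scaled by width, and the median peak width was 514 and 879.5 bp. Their methylation was 0.496% and 1.51% at up to 100 bp and 0.387% and 1.43% at over 500 bp, a difference of −0.0907 ± 0.0261 points (SD, n = 2). The difference of the medians had the opposite sign, 0.0294 ± 0.00422 points, so no direction is read from it. Over all shared ends it went the other way, from 0.530% and 1.56% to 1.28% and 2.55% (0.871 ± 0.176 points). The longest class held 75 end-to-start gaps beside 43 facing starts, and the shortest 13 beside 179. That change in makeup stands beside the rise with length, and its part was not tested separately.

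Shared ends without a peak were more methylated. Of the 145 without a peak, 42 had no read in either replicate and add nothing to the values. Those without a peak had 7.39% and 11.2% methylated reads, and the 1048 with a peak 0.595% and 1.58%, a difference of −8.19 ± 1.98 points (SD, n = 2). Reads per CpG differed as well, 1.83 and 2.12 times the genome mean without a peak against 15.5 and 12.2 times with a peak. Of the 91 with enough reads, 57 were under 5% in both replicates (62.6%), near the background of 63.1% at single ends without a peak. The lack of a called peak did not mean a lack of reads. The deepest was PHF10/DYNLT2, with more reads than the median shared end, at 0.416% of 961 and 1.49% of 1341 reads. LSR/USF2, next to the gene of a basic helix-loop-helix factor, has the longest gap of all shared ends (997 bp) and stood at 0.681% and 1.62%. SAMD1/PRKACA, whose right gene makes a catalytic subunit of protein kinase A, stood at 0.306% and 1.37%.

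Between facing starts methylation was flat along the gap, while in end-to-start gaps it fell toward the gene that starts. With each gap cut into 5 equal parts, facing starts lay between 0.739% and 0.823% (mean of both replicates), with reads per CpG highest in the middle part at 30.9 and 41.6 and lower in the outer ones. In end-to-start gaps the part next to the gene that ends had 5.61% and 7.85%, the middle 2.22% and 2.73%, and the part next to the gene that starts 0.670% and 1.73%. Reads per CpG went the other way, from 4.62 and 7.66 to 13.9 and 24.8. The low point of methylation thus sat at the start side, together with the most reads.

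The same asymmetry was seen inside the genes. Over the first 200 bp, the gene that ends had 10.4% and 12.7% methylated reads and the gene that starts 0.881% and 2.25%, a difference of 10.01 ± 0.622 points (SD, n = 2). Single pairs could be compared only where reads allowed, a limit that leaves out most pairs and whose part in the result was not tested. Of 35 pairs with at least 50 reads on each side in each replicate, the ending side was higher in both replicates in 11 and the starting side in 6. The ending side was over 20 points higher in 4 and the starting side in none. For facing starts the gap itself had 0.344% and 1.22% and the 200 bp inside the genes 0.486% and 1.47%, a difference of −0.197 ± 0.0775 points.

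Methylation rose sooner inside the genes of facing starts than inside genes with a lone start. At 0 to 100 bp inside, facing starts had 0.400% and 1.37%, and lone starts 0.519% and 1.55%. At 900 to 1000 bp, facing starts had 16.9% and 25.3% and lone starts 8.11% and 12.4%, a difference of 10.8 ± 2.93 points (SD, n = 2). Facing starts first passed 20% in both replicates at 1100 to 1200 bp inside the gene, lone starts at 1800 to 1900 bp. On its other side, away from the gene, a lone start passed 20% at 1100 to 1200 bp too, and stood at 18.9% and 26.6% at 900 to 1000 bp. A gene that ends at a shared end passed 20% at 400 to 500 bp.

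The size of that rise rested on thinly covered CpGs. With only CpGs of at least 5 reads in the replicate, the difference at 900 to 1000 bp was 2.52 ± 2.02 points (SD, n = 2), little more than its spread. Within intervals of 8 to 10 CpGs per 100 bp it was 10.3 ± 3.48 points and among intervals with a peak 11.4 ± 3.003 points. CpG density in that bin was 2.55 per 100 bp inside the genes of facing starts and 3.72 inside genes with a lone start.

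**Figure D3:**
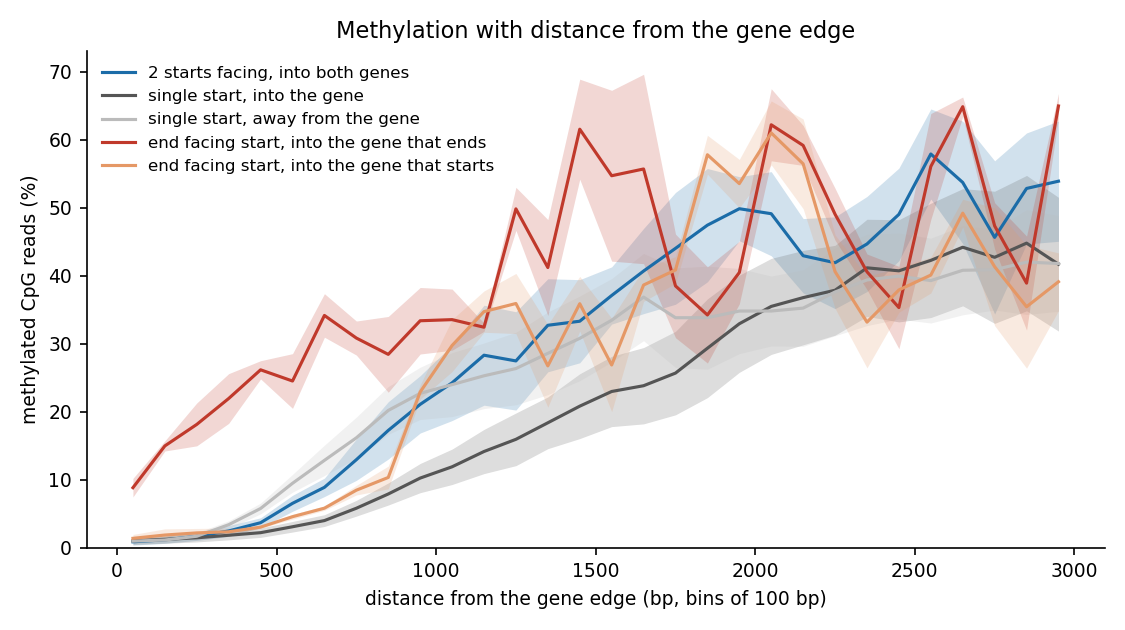
Methylated CpG reads (percent) against distance from the gene edge in bins of 100 bp. Lines are the mean of 2 replicates, and the band runs from the lower to the higher replicate. Shown are facing starts into both genes, end-to-start pairs into either gene, and single starts into and away from the gene. Facing starts (blue) lie above the inward side of single starts (dark grey) at 900 to 1000 bp, where they are near its outward side (light grey), and the gene that ends (red) is highest at the edge.

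Well-known bidirectional pairs had low methylation over the whole interval, whether or not they had a peak. Of 19 pairs taken from general knowledge, 15 are shared ends by the rule used here; PPAT/PAICS, BRCA2/ZAR1L, RANBP1/TRMT2A and JMJD6/METTL23 have no gap of 1 to 1000 bp in this annotation. Of the 15, 14 had reads, and none exceeded 2.41% in either replicate. A peak was found at 12 of the 14, against 93.0% of all facing starts and the background of 80.4% at single starts. Both of these shares also count intervals without reads. The pairs without a peak were COL4A4/COL4A3 and SURF1/SURF2, the latter in a tight cluster of housekeeping genes.

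Well-known pairs of genome maintenance and metabolism genes had a peak, and most of those named here had more reads than the median shared end. NPAT/ATM, which joins a histone gene activator to the DNA damage kinase, had 0.269% of 3345 and 0.832% of 2886 reads methylated, under a peak of signal 3862. Like most shared ends, it had the higher value in replicate 2. TK1/AFMID, which holds the start of thymidine kinase, had 0.666% and 2.08% over the whole interval. Its sides were unequal, with 0.125% and 0.924% in the 200 bp inside TK1 and 13.0% and 20.6% inside AFMID. GART/SON, between a purine synthesis enzyme and a splicing cofactor, had 0.102% and 0.833%. HSPD1/HSPE1 had 0.0806% of 1241 and 1.196% of 1254 reads, with the peak summit inside HSPD1. TMEM258/FEN1, with the flap endonuclease of DNA replication, had 0.475% of 632 and 0.991% of 807 reads. HARS1/HARS2, the cytosolic and mitochondrial histidyl-tRNA synthetases, had 0.595% of 504 and 0.680% of 588. The reads of these last pairs were below the median shared end (663 and 997).

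COL4A1/COL4A2 and COL4A4/COL4A3, collagen pairs of the same family, both stayed low in methylation and differed in peak. COL4A1/COL4A2 had 0.654% of 459 and 1.26% of 477 reads methylated, under a weak peak of signal 262. COL4A4/COL4A3 had 0.730% of 137 and 2.41% of 166 reads and no peak. Their 95% Wilson intervals overlapped in each replicate.

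**Figure D4:**
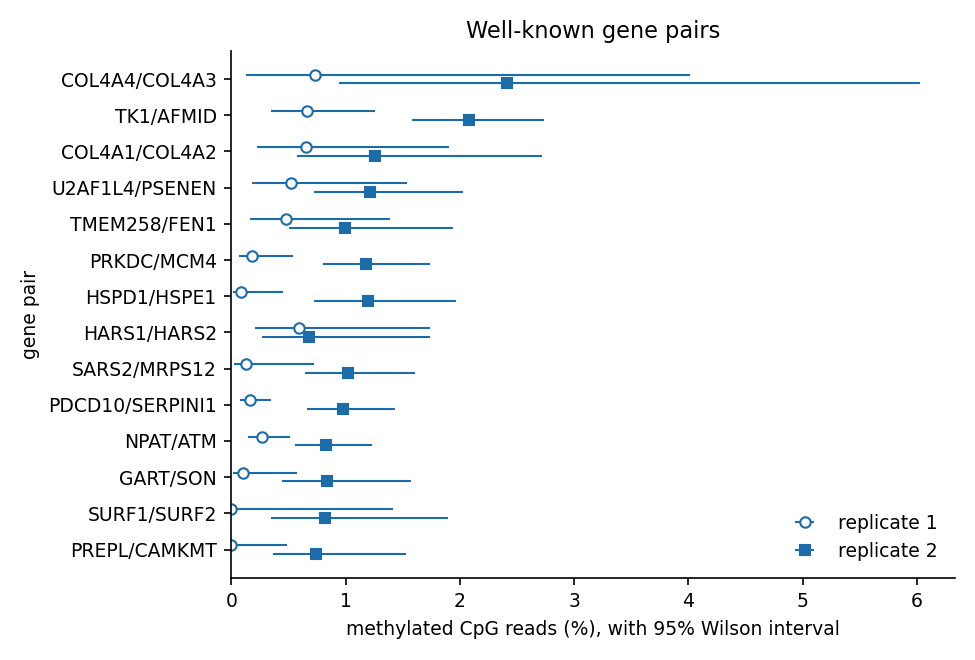
Methylated CpG reads (percent) with 95% Wilson intervals, which cover counting error only, at 14 well-known gene pairs; circles are replicate 1 and squares replicate 2. All values are at or below 2.41%, and the replicate 2 value lies above the replicate 1 value in every pair.

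The strongest peaks, by a signal that is not scaled by width, lay over gaps of 314 to 863 bp. The median gap of all shared ends was 214 bp. PDCD10/SERPINI1, which joins a gene of vascular cell junctions to the neuronal serpin neuroserpin, had the highest signal (7212), a peak of 1556 bp over a gap of 828 bp, and 0.159% of 3782 and 0.973% of 2570 reads methylated. MIA/RAB4B, an end-to-start pair, followed with a signal of 7167 and 0.0964% and 0.951%. SF3B6/FAM228B, with a splicing factor gene, had 7064 and the most reads of all shared ends in replicate 1 (4991), at 0.281% and 1.74%. CDCA3/USP5 and KBTBD3/AASDHPPT had signals of 6182 and 5942. The widest peak, 1870 bp, covered the 282 bp gap of PPP1R13L/POLR1G, an inhibitor of p53 and an RNA polymerase I subunit, at 0.661% and 0.836%.

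Several gene groups were common among shared ends. Against the 12.2% of all autosomal protein-coding genes found in a shared end, the share was 35.1% of 77 mitochondrial ribosome genes, 34.1% of 82 DNA repair genes, 34.1% of 44 genes of respiratory complex I, 33.3% of 33 RNA polymerase genes and 29.7% of 74 histone genes. It was 8.60% of 372 solute carriers, 7.52% of 505 zinc finger genes and none of 63 protocadherins. None of the 10 pluripotency, 5 fibroblast or 12 other lineage marker genes had a shared end. These shares describe the annotation and the CpG limit, not the libraries, and many histone genes lie in clusters of near-identical copies.

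Most of these groups had low methylation in the libraries. The DNA repair genes sat in 29 shared ends, all with a peak, against 87.8% of all shared ends, with a median methylation of 0.292% and 1.15%. Mitochondrial ribosome genes sat in 26, of which 24 had a peak, with a median of 0.205% and 1.23%, from MITD1/MRPL30 (0% of 222 reads, which allows up to 1.35%, and 0.306%) to MRPL28/PGAP6 (1.46% and 2.61%). Histone genes sat in 12, all with a peak, at a median of 0.165% and 1.06%. All shared ends had medians of 0.326% and 1.24%. Collagen genes sat in 4, of which 2 had a peak, with a median of 0.654% and 1.5% over the 3 with enough reads, and solute carriers in 32, of which 26 had a peak, with 0.406% and 1.26%. Complex I genes sat in 17, with a median of 0.300% and 1.14% and 1 exception, NDUFA13/YJEFN3.

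Of the 20 shared ends over 20% in both replicates, 5 were facing starts, 5 were end-to-start pairs, 5 were facing ends and 5 had unknown direction. That was 5 of the 677 facing starts with enough reads, against a background of 1.89% at single starts, and 5 of 9 facing ends, against 27.6% at single ends known not to be starts. A peak was found at 2 of the 20, near the background of 12.2% at single ends over 20% (23 of 188). With at least 50 reads in each replicate, 10 remained.

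The 5 facing starts over 20% ran from partly methylated to 100% in both replicates. FBXO46/MEIOSIN, whose right gene drives entry into meiosis, had 95.2% of 42 and 94.9% of 118 reads methylated. SULT6B1/CEBPZOS, next to a sulfotransferase, had 100% of 63 and 89.1% of 64. LOC124904708/ZNF540, with a KRAB zinc finger gene, had 100% of 35 and of 27 reads, with 95% Wilson intervals reaching down to 90.1% and 87.5%. These 3 had no peak, and both sides of each gap were methylated. ZKSCAN4/NKAPL, with a testis-expressed gene on its right, had 84.6% of 26 and 83.3% of 42 and no peak either. The fifth, SYCP2/FAM217B, had 47.0% of 183 and 49.5% of 331 under a weak peak of signal 338.

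The other methylated shared ends held a gene's end or had unknown direction. PTBP1/PLPPR3 (chr19:812313-812487), where the gene of a splicing repressor and a phospholipid phosphatase-related gene end toward each other, had 96.5% of 170 and 95.5% of 379 reads methylated at 11.7 CpGs per 100 bp. It was the deepest of the methylated gaps between facing ends, and a high CpG density alone did not go with low methylation there. NDUFA13/YJEFN3, the end of a complex I gene facing a start, had 91.3% of 69 and 93.7% of 175. SAP25/LRCH4 had 94.9% of 79 and 78.6% of 384, with replicates whose 95% Wilson intervals did not overlap. DHRS4/DHRS4L2, near-identical dehydrogenase genes whose reads could be placed at either copy, had 30.7% and 34.4%. TNFRSF25/PLEKHG5, with the gene of a death receptor, had 25.7% of 346 and 27.3% of 490 with a peak of signal 380 inside the 948 bp gap.

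Among shared ends with enough reads on both sides, a few were methylated on 1 side only. Of 750 shared ends with at least 50 reads on each side in each replicate, 704 were under 5% on both sides in both replicates. None was over 20% on both sides. This limit leaves out methylated ends with few reads, such as FBXO46/MEIOSIN, with 42 reads over its whole interval in replicate 1. It also leaves out SYCP2/FAM217B, with 27 reads on the SYCP2 side in replicate 1. The counts therefore do not describe all shared ends. The sides differed by over 20 points in both replicates in 7. All 7 had a peak, against 87.8% of all shared ends. The read limit itself favours ends with a peak, whose reads per CpG were 15.5 and 12.2 times the genome mean. Without a peak these were 1.83 and 2.12 times. The share with a peak among the 750 was not counted, so nothing is read from the 7. LRRC23/ENO2, whose right gene is the neuronal enolase, had 71.9% and 66.7% in the last 200 bp of LRRC23 and 0% and 0.980% in the first 200 bp of ENO2. JMJD8/WDR24 had 0.844% and 1.05% on its left and 79.5% and 52.5% on its right. ABCB6/ATG9A had 0% and 0.625% against 27.0% and 43.6%.

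The remaining 4 differed less, and 1 of them is imprinted. TAS1R1/ZBTB48, from a taste receptor gene to that of a telomere-binding zinc finger protein, had 33.3% and 28.7% against 0% and 0.889%. TMEM139/CASP2 had 21.7% and 28.9% against 0.616% and 0.915% at the caspase gene. GPC2/STAG3, facing starts of a glypican and the meiotic cohesin subunit, had 0% and 0.749% in GPC2 and 33.6% and 24.9% in the first 200 bp of STAG3, then 87.1% and 96.8% from there to 500 bp. The right part of its gap, next to STAG3, stood at 1.05% and 2.53%. A side at 0% in replicate 1 had from 62 reads (LRRC23/ENO2) to 171 (TAS1R1/ZBTB48), which allows up to 4.84% and 1.75%. SGCE/PEG10, imprinted genes expressed from the copy inherited from the father, had 1.53% and 0.680% in SGCE and 26.2% and 26.6% in PEG10. These are bulk libraries, so a value between 0% and 100% cannot tell a mixture of cells from a mixture of the copies within a cell. Reads come from accessible fragments, so a low value, as in SGCE, does not show that both copies were unmethylated.

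Step by step along the DNA, the change could fall within the gap itself. At SYCP2/FAM217B the mean of both replicates was 83.0% in the first 200 bp of SYCP2, 89.8% in the left part of the gap, 58.5% in its right part, 11.7% in the first 200 bp of FAM217B and 2.29% from there to 500 bp. In the sequence printed for this pair, the CpGs that read lowest are thus toward its right end, next to FAM217B. Reads were few there: the right part of the gap had 32 and 56, and its lowest CpG 4 and 3. TEX14/RAD51C, between a testis gene and a gene of homologous recombination, went from 88.6% in the left part of its gap to 30.6% in the right part and 3.10% in the first 200 bp of RAD51C. It was the most methylated shared end of the DNA repair list, at 18.4% and 19.6% over the whole interval. Reads were few on the TEX14 side, 12 and 16 in its first 200 bp.

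**Figure D5:**
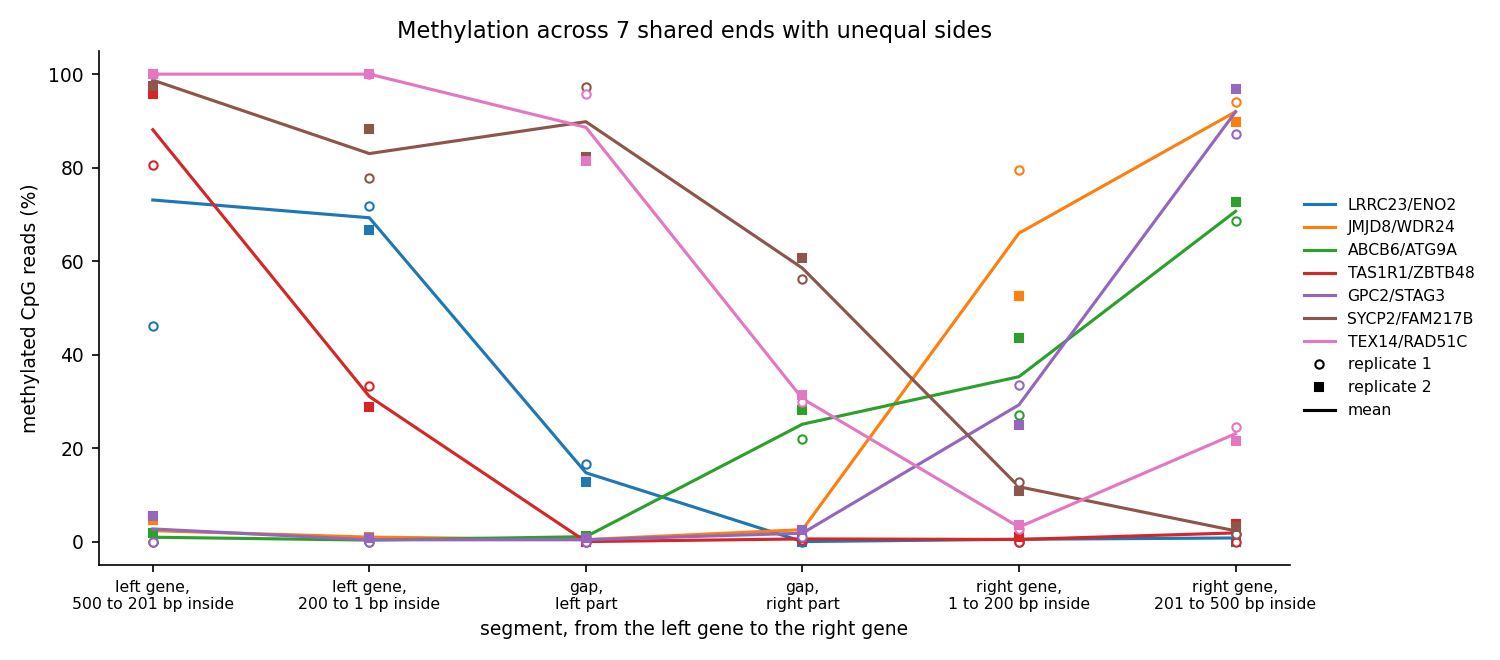
Methylated CpG reads (percent) in 6 segments from 500 bp inside the left gene to 500 bp inside the right gene, at 7 shared ends with unequal sides; lines are the mean, open circles replicate 1 and squares replicate 2. SYCP2/FAM217B and TEX14/RAD51C come down across the gap from left to right, LRRC23/ENO2 and TAS1R1/ZBTB48 are high on the left only, and JMJD8/WDR24, ABCB6/ATG9A and GPC2/STAG3 go up on the right.

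Replicates differed in level, and their ranks of shared ends were only loosely alike. Over the 1044 with at least 200 reads, Pearson's r between replicates was 0.823 and Spearman's rho 0.460, given as a description over intervals of the same 2 libraries. The largest disagreement was YJEFN3/CILP2, an end-to-start pair, with 11.7% of 240 reads in replicate 1 and 31.1% of 569 in replicate 2. LRRC23/ENO2 went the other way, at 20.2% and 9.33%. PUS7L/IRAK4 had 2.62% and 13.0%, ABHD14B/ABHD14A 2.72% and 11.8%, and CRACR2B/CD151 4.33% and 13.3%.

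Short sequence motifs were counted in RefSeq promoters, 250 bases before to 50 after the start, on both strands. For facing starts the promoter of the right gene was used, 1 per pair, so the window reaches across the gap and in many pairs into the left gene. The ETS letters CCGGAAGT were found in 15.4% of 697 facing starts, 6.83% of 6329 single CpG-dense starts and 6.31% of all 15101 autosomal promoters in the table. The starting genes of the 191 end-to-start pairs held these letters in 13.1%. The CCAAT box was found in 42.2% of facing starts, 34.0% of single starts and 36.0% of all, and in 30.9% of end-to-start pairs. TATAAA was found in 3.30% of facing starts, 5.07% of single starts, 9.71% of all and 2.09% of end-to-start pairs. The SP1 letters GGGCGG were found in 74.5% of facing starts, 79.2% of single starts, 58.9% of all and 84.3% of end-to-start pairs. A match describes letters and shows no binding. In the printed gaps, HARS1/HARS2 holds the ETS letters 2 times, near its edges, and CCAAT is found 4 times in SARS2/MRPS12, 3 times in GART/SON and 2 times in the methylated SYCP2/FAM217B.

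At the CpG limit itself, values were mixed on both sides. Just outside lay PRR7/DBN1 (4.98 CpGs per 100 bp), with 5.74% and 7.57% and a peak, SLC1A6/TEKTL1 (4.98), facing starts with 14.1% and 18.4% and no peak, and BRD8/KIF20A (4.99), facing starts with 0.115% and 1.12% and a peak. Just inside lay ALKBH6/CLIP3 (5), with 0.613% and 1.30% and a peak, LOC124903734/WFDC1 (5.01), with 54.3% and 42.1% and no peak, and FBXO8/CEP44 (5.02), with 0% of 277 reads, which allows up to 1.08%, and 0.741% and a peak. All 830 gaps under the limit had 11.4% and 19.1% methylated reads, and 20.4% had a peak; among the 51 of them with facing starts 60.8% had a peak, with 1.71% and 3.85% methylated reads.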

How the data were processed

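ATAC-Me libraries of 2 H9 replicates (1 group) were analysed. Trim Galore, Genrich and hg38 (GRCh38) are named per the submitters' processing notes; for mapper, methylation caller, duplicate removal and the use of replicates in peak calling, nothing is given in the sources used here. The authors deposited a methylation fraction and a read count for each CpG and replicate, and for the group 1 peak list with a score, a signal and a −log10 q per peak, used only to describe and rank peaks. Failed conversion reads as methylation and weighs most on low values.

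Methylated reads are the fraction times the reads, rounded (100% of products were whole within 0.001). An interval's methylation is methylated reads over reads in each replicate, then the mean ± SD. Values per interval needed at least 20 reads in each replicate, a peak had to overlap by 1 bp, and chromosome X was not analysed here. Gene edges came from RefSeq GRCh38.p14, and direction from its promoter table, which holds a start for 15101 of 19126 genes; exons and UTRs are not annotated in these tables. Differences were taken within replicates, and no test across regions was run, since regions are not replicates. Reads of 1 fragment are counted at several CpGs, so Wilson 95% intervals are too narrow. The computation was tested on simulated data (Python 3.11.15, numpy 2.4.6, pandas 2.3.3, scipy 1.17.1).

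The shared ends and gene lists were chosen with earlier results of these data known. Some pairs and genes of these lists are not reported here. Named were textbook pairs, pairs over 20% with 50 reads, those with the strongest or widest peaks, those without a peak with most or fewest reads, the largest differences between replicates and between sides, the extremes of gene groups and gap length, and pairs at the CpG limit. Other methylated pairs, SGCE/PEG10, TMEM139/CASP2 and the segments of SYCP2/FAM217B and TEX14/RAD51C were chosen after their values were seen. Alternatives covered weighting, read minimums, interval size, CpG density, isolation, peak overlap and each replicate left out. Those on classes of reads per CpG, on 1 class of CpG density inside the genes, on intervals with a peak or a read, on the 200 bp inside the genes, and the further settings tried on facing against single starts were added after seeing the data.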

Additional observations from a re-analysis of the deposited data

How the results depend on the processing

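The difference in methylation between shared and single ends (−0.329 points) was −0.337 as a median over intervals, −1.01 as their mean, −0.304 and −0.257 with at least 10 and 50 reads, −0.170 with CpGs of at least 5 reads, −0.438 with single ends of 500 bp on each side, −0.200 with at least 8 CpGs per 100 bp, −0.370 within bins of density, −0.253 with no gene within 5000 bp, −0.620 for facing against single starts and −0.132 over the 200 bp inside these. It reversed to 0.0146 with single ends of 200 bp on each side and to 0.672 within 10 classes of reads per CpG; leaving out a replicate gave −0.329 and −0.328. Facing against single starts (−0.620) was −0.392 as a median, −0.369 with CpGs of at least 5 reads, −0.284 with 200 bp on each side and −0.456 with a peak, and it reversed to 0.614 within 10 classes of reads per CpG; without a replicate it was −0.680 and −0.560. Without the class with the fewest reads the latter was −0.418. The difference in peaks (10.6 points) was 16.5 for peaks covering at least 50% of the interval, 12.7 and 13.9 for peaks above the median and the upper quartile of −log10 q, 13.1 with 200 bp on each side and 12.5 for facing against single starts. Shared ends over the limit (20) were 10 with at least 50 reads and 13 over 50% methylation, and 23 to 29 with 1 replicate. As medians, facing starts minus end-to-start gaps (−1.63) was −0.815, the longest minus the shortest gaps (0.871) 0.487 and the densest minus the least dense class (−1.40) −0.443; without a replicate they were −1.71 and −1.55, 0.746 and 0.995, and −1.74 and −1.06. With CpGs of at least 5 reads, the rise inside facing starts (20.2 points) was 6.09, the gene that ends minus the gene that starts (7.45) 4.56, and facing minus single starts at 900 to 1000 bp (10.8) 2.52; without a replicate these were 16.5 and 23.9, 6.65 and 8.24, and 8.77 and 12.9. The cause of these changes was not tested. Of the 62 alternative values, 31 stayed within the spread or within 1.5 times the count, 28 moved with the same sign and 3 reversed. No paired analysis was possible because there is only 1 group, so no samples pair across groups; kinds of interval were compared within each replicate. Depth limits values under about 1%, and intervals with under 50 reads.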
